A study of Rattus norvegicus with 15 samples.

Results

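The microRNAs (miRNAs) of the miR-196 and miR-10 families are encoded inside the Hox gene clusters, and all 5 of their main mature forms on the array were followed here: miR-196a, miR-196b, miR-196c, miR-10a-5p and miR-10b. They were chosen by name, as every rat miRNA called miR-196 with a letter, miR-10a or miR-10b, leaving out the forms from the opposite arm of the hairpin, and they make up 5 of the 350 rat miRNAs on the array. The family was singled out because miR-196c was lower in 1 of the diabetic groups than in vehicle hearts, so that difference is given as a description, without a test. Of the 5, miR-196c, miR-10a-5p and miR-10b gave enough signal to be tested, among 165 miRNAs tested in all. miR-196a and miR-196b did not.

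Hox genes encode transcription factors that set position along the body axis, and they lie in 4 clusters in mammals. The miR-10 and miR-196 genes sit between them, can be transcribed with their neighbours, and repress Hox messenger RNAs. In mouse embryos miR-196 directs the cleavage of Hoxb8 messenger RNA, and in endothelial cells of pig and human origin miR-10a is known to restrain inflammatory signalling. Neither family is counted among the miRNAs that define heart muscle.

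Total RNA of hearts of male Sprague-Dawley rats was measured on 15 one-colour Agilent miRNA arrays, 5 per group. The GF group held streptozotocin-diabetic rats whose plasma glucose was made to fluctuate by a fast of 24 h and intraperitoneal insulin at 0.5 IU/kg. The DM group held streptozotocin-diabetic rats without that treatment, and the Veh group held rats given vehicle. Streptozotocin, a toxin of the pancreatic beta cells that make insulin, was injected once into the tail vein at 60 mg/kg in the GF and DM groups, and plasma glucose was above 300 mg/dL. Insulin and fasting were given in the GF group alone, so their effects and those of fluctuating glucose cannot be told apart. The labels give no age and do not say that each array came from a separate animal. The tissue was heart as a whole, in which fewer cells of a type and less of a miRNA per cell cannot be told apart.

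The mature sequences, from the RefSeq tables of the GRCr8 assembly, show how little separates the members. All 5 were matched. The seed, bases 2 to 8 from the 5′ end, which pairs with target messenger RNAs, is in capitals.
miR-196c: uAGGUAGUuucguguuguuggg
miR-196b: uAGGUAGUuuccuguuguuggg
miR-196a: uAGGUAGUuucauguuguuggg
miR-10a-5p: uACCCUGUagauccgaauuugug
miR-10b: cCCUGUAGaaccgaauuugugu

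The 3 miR-196 forms share 1 seed and differ at a single base outside it. Counted from the 5′ end, the change is G12A between miR-196c and miR-196a and G12C between miR-196c and miR-196b, and the other 21 of 22 bases are identical. The annotated miR-10b starts 2 bases later than miR-10a-5p, which moves its seed by the same step. Over the 21 bases that overlap they differ by U12A, counted on miR-10a-5p.

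The genes lie in all 4 Hox clusters. Mir196c (mature form at chr10:81727561-81727582, plus strand) lies between Hoxb13 and Hoxb9, and Mir10a (chr10:81779730-81779752, plus strand) lies between Hoxb5 and Hoxb4 in that same HoxB cluster. Mir10b (chr3:80035886-80035907, plus strand) falls within the annotated span of Hoxd4, next to Hoxd3. Mir196b (chr4:82661149-82661170, minus strand) lies between Hoxa9 and Hoxa10, and Mir196a (chr7:135988900-135988921, plus strand) between Hoxc10 and Hoxc9. The members with a measurable signal therefore come from HoxB (miR-196c and miR-10a-5p) and HoxD (miR-10b).

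Signals are processed spot intensities scaled to the 75th percentile of each array and given on the log2 scale, with a floor of 4.31. The unscaled 75th percentile ran from 1749 to 3422 over the arrays, and between 166 and 190 miRNAs were detected on each. It was 2780 ± 529 in GF samples (SD, n = 3), 2027 ± 256 in DM samples (SD, n = 3) and 2205 ± 261 in Veh samples (SD, n = 4), and no difference between groups passed in an exact two-sided permutation test (p = 0.229 for GF minus Veh, 0.2 for GF minus DM and 0.343 for DM minus Veh, each with adjusted p = 0.343; the GF and DM comparison cannot go below 0.1). In 5 pairs of arrays from a single group the values lay closer together than the scanner software's stated error (reduced chi-square 0.235 to 0.562 over 156 miRNAs): GF 1 and 5, GF 2 and 4, DM 2 and 4, DM 3 and 5, and Veh 1 and 3. Each pair was averaged and counted as 1 sample, which left 3 GF, 3 DM and 4 Veh samples. Array Veh 5 lay nearer to DM 1 (reduced chi-square 1.14) than to any other Veh array (3.25 to 4.07), so each difference of a member from Veh hearts is given with and without it.

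miR-196c had its lowest mean signal in GF hearts, and DM and Veh hearts had similar means. Its brightest probe read 5.37, 5.28, 5.77 and 5.95 on arrays GF 1, 2, 4 and 5, and GF 6 was not well above background and was set to the floor. On arrays DM 1 to DM 5 it read 6.18, 6.92, 6.65, 6.22 and 6.87. On arrays Veh 1 to Veh 5 it read 7.61, 6.67, 5.83, 6.83 and 5.68. Every GF array lay below every DM array, whereas GF 4 and GF 5 overlapped Veh 5, and GF 5 also lay above Veh 3. These arrays include close pairs, described above, and the share of all miRNAs apart was taken only over distinct samples. There every GF sample lay below every DM sample for 12.7% of the tested miRNAs.

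**Figure D1:**
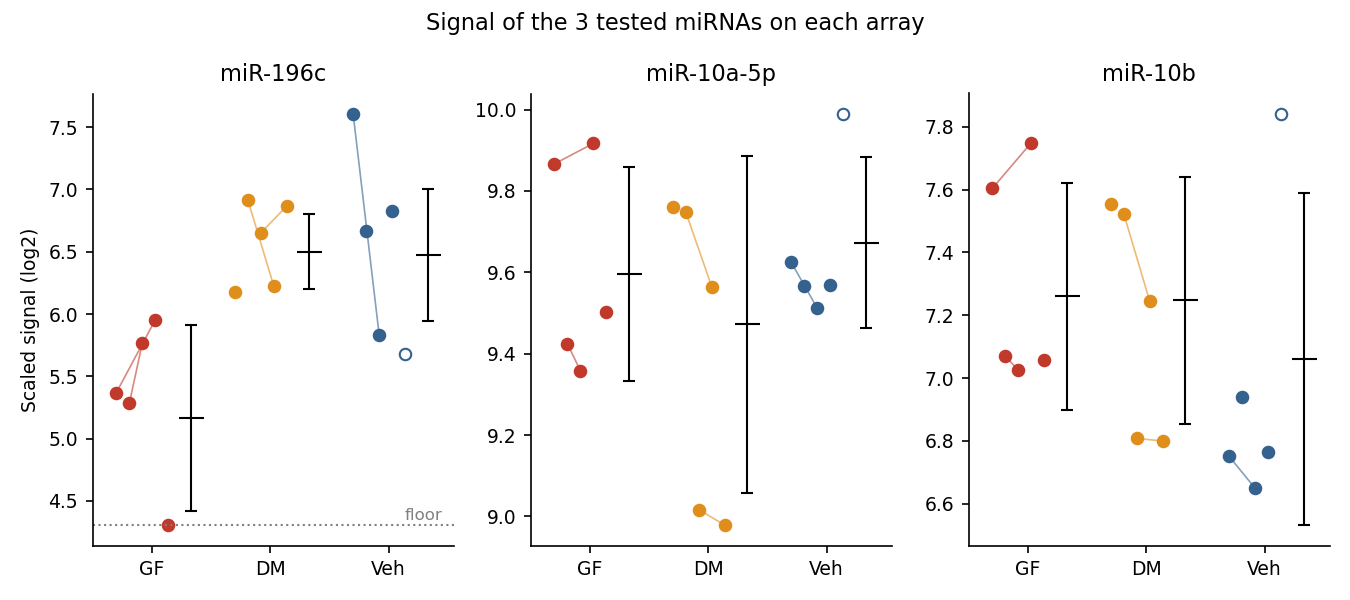
Scaled signal (log2) of miR-196c, miR-10a-5p and miR-10b on each array, in GF, DM and Veh hearts from left to right. Points are arrays, lines join the 2 arrays counted as 1 sample, the open point is Veh 5, and bars give the mean ± SD over distinct samples (n = 3, 3 and 4). For miR-196c the GF points lie between 4.31 and 5.95 and the DM points between 6.18 and 6.92, while the Veh points run from 5.68 to 7.61; for miR-10a-5p and miR-10b all groups overlap.

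Over distinct samples miR-196c was 5.16 ± 0.75 in GF hearts (SD, n = 3), 6.50 ± 0.30 in DM hearts (SD, n = 3) and 6.48 ± 0.53 in Veh hearts (SD, n = 4). In order of level DM and Veh stood together, closer than their spread, and GF lay below both. The GF minus Veh difference was -1.31 ± 0.37 (SE). Its size follows the floor set for GF 6, at -1.64 with the floor halved and -0.97 with it doubled, so no fold is given. With all 15 arrays and the close pairs as a random block it was -1.29 ± 0.74 (SE). That SE rests on a within-pair correlation shared by all miRNAs, not on that of miR-196c alone. Over distinct samples the difference was -1.57 ± 0.32 without Veh 5 and -0.88 ± 0.31 without GF 6, the sample at the floor. Over the arrays of slide 1 alone it was -1.81, and over those of slide 2 alone -0.77. All 3 distinct GF samples lay below all 4 distinct Veh samples, the nearest being 5.66 against 5.68, as did 19.4% of the tested miRNAs. In that contrast 7.88% of all miRNAs passed the threshold of an adjusted p under 0.05 (13 of 165), but 0 did when Veh 1 and 3, Veh 2, Veh 4 or GF 2 and 4 were left out. Summed markers of endothelium, leukocytes and red cells were also lower in every GF than in every Veh sample (values further on). So was the sum of 2 neural markers, both near the floor. Not every leukocyte marker was lower. In GF minus Veh, miR-223 was 0.51 and miR-150 -0.0097, while miR-142-3p, miR-142-5p and miR-146a were -0.48, -0.64 and -0.46. The part of these markers in the miR-196c difference was not tested.

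The comparison of GF with DM hearts sets diabetes with fasting, insulin and fluctuating glucose together against diabetes alone. It shares its GF samples with the contrast that drew attention to the family. Its interval and p-values for miR-196c are therefore not free of that choice, which favours a difference. miR-196c differed by -1.34 ± 0.39 (SE), with a 95% confidence interval from -2.21 to -0.46. It was -1.67 with the floor halved and -1.0 with it doubled. With the close pairs as a random block, and the same shared correlation, it was -1.32 ± 0.78 (SE; limma adjusted p = 0.468). The difference did not pass after adjustment over all 165 miRNAs (limma unadjusted p = 0.00703, adjusted p = 0.272). All 3 GF samples lay below all 3 DM samples, which was also true of 12.7% of the tested miRNAs. On slide 1 alone it was -1.25, on slide 2 alone -1.20, and it was -0.91 without GF 6 (adjusted p = 0.474).

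In the comparison of DM with Veh hearts miR-196c differed by 0.027 ± 0.37 (SE; limma adjusted p = 0.984). The 95% confidence interval of this comparison, from -0.79 to 0.85, leaves room for a change of under 2-fold in either direction. It shares its Veh samples with the contrast that drew attention to the family, so its interval and p-value are not free of that choice. The sign of the DM minus Veh difference turned without Veh 5 (-0.24 ± 0.32), as it did on slide 1 alone (-0.56), while on slide 2 alone the value was 0.43. Of the 3 tested members 0 passed in this contrast, in which 0% of all miRNAs passed over distinct samples (14 of 165 at an unadjusted p under 0.05, and 3, or 1.82%, after adjustment when all 15 arrays were taken as independent). Likewise 0 of the 3 passed in GF minus DM, where 0% of all miRNAs did (18 unadjusted, and 6, or 3.64%, over 15 arrays). miR-196c, whose low GF values led to the choice of the family, was the 1 member of 3 with an unadjusted p under 0.05.

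**Figure D2:**
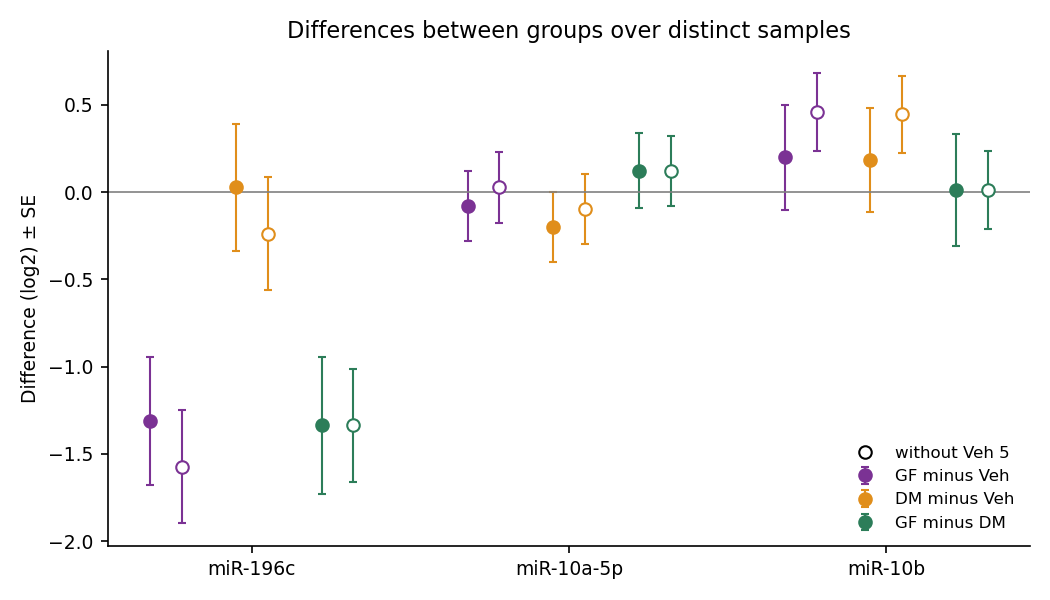
Log2 differences ± SE for each tested miRNA in GF minus Veh, DM minus Veh and GF minus DM, over all distinct samples (filled) and without Veh 5 (open). The 2 contrasts of miR-196c that involve GF lie at -1.31 and -1.34; the filled points of miR-10a-5p and miR-10b lie between -0.20 and 0.20.

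All 4 probes of miR-196c, although they differ in brightness, were lowest on GF 6 and highest on Veh 1. The brightest was well above background on 14 of 15 arrays, the next 2 on 14 and 13, and the dimmest on 8. Scaled signals of the brightest probe, before the floor was set, ran from 9.71 to 62.0 on GF arrays, from 72.3 to 121 on DM arrays and from 51.4 to 195 on Veh arrays. On GF 6 all 4 probes lay under the floor of 19.8. Fitted on each probe alone, GF minus Veh ran from -1.31 for the brightest to -0.56 for the dimmest, which was at the floor on 8 arrays, and GF minus DM from -1.34 to -0.26. The scanner software detected miR-196c on 4 of 5 GF arrays, 5 of 5 DM arrays and 5 of 5 Veh arrays.

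**Figure D3:**
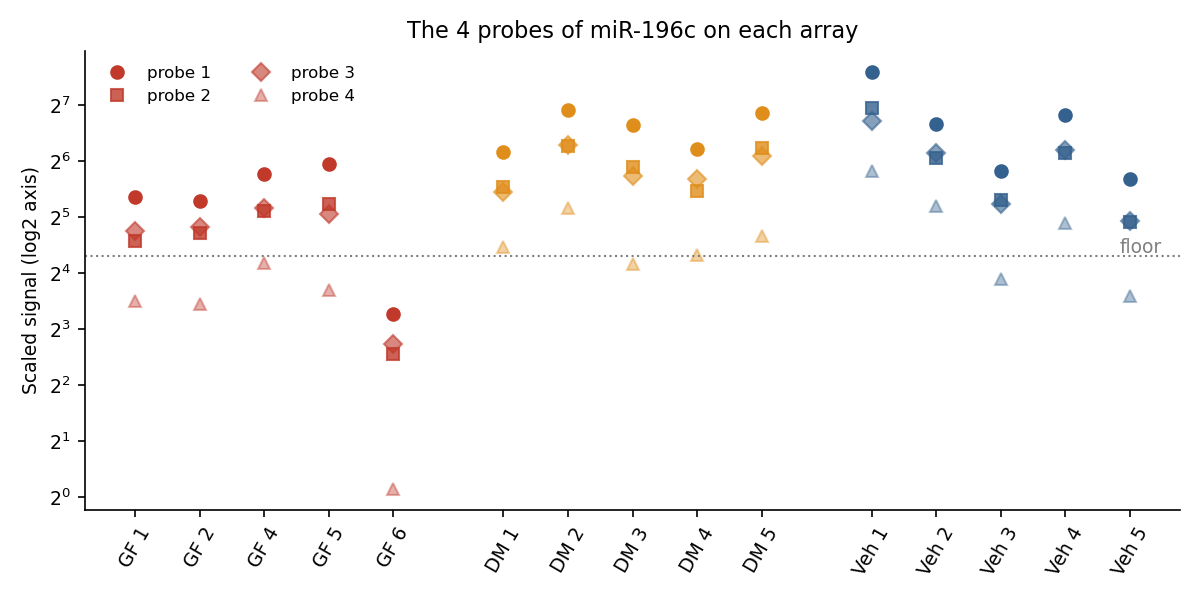
Scaled signal of each of the 4 miR-196c probes on the 15 arrays (log2 axis), GF in red, DM in orange and Veh in blue; the dotted line is the floor of 19.8. The probes move together from array to array, all 4 fall below the floor on GF 6, and all 4 are highest on Veh 1 and low on its partner Veh 3.

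miR-196c was also among the least repeatable signals. The SD within the 5 close pairs was 0.65, the third highest of 165 tested miRNAs, against a median of 0.067. The SD between distinct samples of a group was 0.55, but these are partly averages of paired arrays, so the sizes are not directly comparable. Most of the SD within pairs came from Veh 1 and Veh 3, which were 1.78 apart. This was the widest gap of any tested miRNA in that pair, where the median gap was 0.073 and the next was 0.57. Each of the 4 probes differed by 1.5 to 1.78 between these arrays, which were otherwise the closest pair of all. The paired arrays were on different slides. Slide 1 was the higher in Veh 1 and 3 and in DM 2 and 4 (by 0.69), and slide 2 was the higher in DM 3 and 5, GF 1 and 5 and GF 2 and 4 (by 0.22, 0.59 and 0.48). The repeat spots of the brightest probe within an array had a median SD of 0.19. miR-196c itself was not among the 156 miRNAs that defined the pairs, since it was not detected on GF 6.

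**Figure D4:**
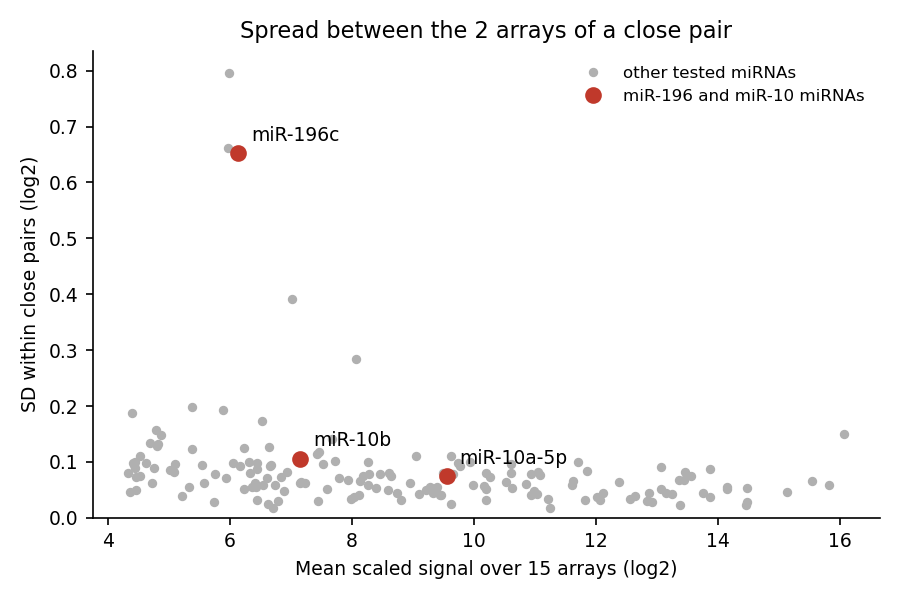
SD within the 5 close pairs against the mean scaled signal (both log2), for each of the 165 tested miRNAs, with the miR-196 and miR-10 members in red. miR-196c, at 0.65, lies far above most miRNAs, whose median is 0.067, while miR-10a-5p (0.074) and miR-10b (0.11) lie low.

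miR-196a and miR-196b, from the HoxC and HoxA clusters, had no signal well above background on any of the 15 arrays. Each had 2 probes on 10 spots each, and 0 spots were called well above background. Their scaled signals ran from -1.42 to 10.7 for miR-196a and from 0.309 to 11.7 for miR-196b, all under the floor of 19.8, so no difference between groups could be measured. The highest values of both came from array Veh 2, at 10.7 and 11.7. Both also stayed under the floor on Veh 1, the array on which each miR-196c probe was highest, at no more than 6.03 for miR-196a and 2.78 for miR-196b. Probe sequences were not used here, so how far a probe of 1 form also binds another, in miR-196 or in miR-10, was not tested.

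miR-10a-5p, from the same HoxB cluster as miR-196c, was well above background on all 15 arrays with both of its probes. It read 9.87, 9.42, 9.36, 9.92 and 9.5 on arrays GF 1, 2, 4, 5 and 6. On arrays DM 1 to DM 5 it read 9.76, 9.75, 9.02, 9.56 and 8.98. On arrays Veh 1 to Veh 5 it read 9.62, 9.57, 9.51, 9.57 and 9.99. The groups overlapped: Veh 5 was the highest array of all, DM 3 and DM 5 the lowest, and the other 4 Veh arrays lay within 0.11 of each other.

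Over distinct samples miR-10a-5p was 9.60 ± 0.26 in GF hearts (SD, n = 3), 9.47 ± 0.41 in DM hearts (SD, n = 3) and 9.67 ± 0.21 in Veh hearts (SD, n = 4). No neighbours in this order differed beyond their spread. GF minus Veh was -0.078 ± 0.20 (SE), and 0.027 ± 0.20 without Veh 5. DM minus Veh was -0.20 ± 0.20 (95% confidence interval -0.65 to 0.25; limma adjusted p = 0.698). It was -0.096 without Veh 5 and 0.036 without DM 3 and 5, the sample with the lowest level. GF minus DM was 0.12 ± 0.22 (95% confidence interval -0.36 to 0.61; limma adjusted p = 0.803), and -0.11 without DM 3 and 5. Within slide 1 and slide 2, miR-10a-5p differed by 0.050 and -0.098 in GF minus Veh, by -0.086 and -0.42 in DM minus Veh, and by 0.14 and 0.32 in GF minus DM.

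miR-10b, from the HoxD cluster, was well above background on all 15 arrays with its brightest probe and on 8 with its other probe, which was at the floor on 9. The brightest probe read 7.60, 7.07, 7.02, 7.75 and 7.06 on arrays GF 1, 2, 4, 5 and 6. On arrays DM 1 to DM 5 it read 7.55, 7.52, 6.81, 7.24 and 6.80. On arrays Veh 1 to Veh 5 it read 6.75, 6.94, 6.65, 6.77 and 7.84. As with miR-10a-5p, Veh 5 was the highest array of all, and the groups overlapped.

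Over distinct samples miR-10b was 7.26 ± 0.36 in GF hearts (SD, n = 3), 7.25 ± 0.39 in DM hearts (SD, n = 3) and 7.06 ± 0.53 in Veh hearts (SD, n = 4), again with no neighbours apart by more than their spread. GF minus Veh was 0.20 ± 0.30 (SE), 0.46 ± 0.22 without Veh 5 and -0.0090 ± 0.33 without GF 1 and 5. DM minus Veh was 0.19 ± 0.30 (95% confidence interval -0.48 to 0.86; limma adjusted p = 0.795), and 0.45 ± 0.22 without Veh 5 (95% confidence interval -0.062 to 0.95; adjusted p = 0.256). GF minus DM was 0.013 ± 0.32 (95% confidence interval -0.70 to 0.73; limma adjusted p = 0.987). Within slide 1 and slide 2, miR-10b differed by 0.49 and 0.19 in GF minus Veh, by 0.45 and -0.063 in DM minus Veh, and by 0.042 and 0.26 in GF minus DM; Veh 5 was on slide 2.

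The balance of the 2 miR-10 forms within an array does not depend on the scaling between arrays. This measure was chosen after its values were seen and is given without a test, and its size compares probes, not amounts. miR-10b minus miR-10a-5p was -2.26, -2.35, -2.33, -2.17 and -2.45 on arrays GF 1, 2, 4, 5 and 6. It lay between -2.32 and -2.18 on the 5 DM arrays. On arrays Veh 1 to Veh 4 it was -2.87, -2.63, -2.86 and -2.80, and on Veh 5 it was -2.15. Thus Veh 1 to Veh 4 lay below all GF and DM arrays, and Veh 5 lay above them all. With close pairs counted as 1 sample, the 3 Veh samples other than Veh 5 ran from -2.87 to -2.63. The 3 GF samples ran from -2.445 to -2.215 and the 3 DM samples from -2.27 to -2.19. How often other pairs of miRNAs separate the groups in this way was not examined.

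The mean balance was -2.33 ± 0.12 in GF samples (SD, n = 3), -2.23 ± 0.042 in DM samples (SD, n = 3) and -2.61 ± 0.33 in Veh samples (SD, n = 4), or -2.77 ± 0.12 in Veh samples without Veh 5 (SD, n = 3). GF minus Veh was therefore 0.28, or 0.43 without Veh 5, and DM minus Veh 0.39, or 0.54 without Veh 5. Within slide 1 and slide 2 it was 0.44 and 0.29 in GF minus Veh and 0.54 and 0.36 in DM minus Veh. These contrasts share the Veh samples. Total gene signal gave the same picture: -2.92 to -2.63 on GF arrays, -2.78 to -2.63 on DM arrays, -3.40 to -3.13 on Veh 1 to Veh 4, and -2.62 on Veh 5. With normexp background correction GF minus Veh was 0.12 and DM minus Veh 0.38. The other probe of each form gave 0.16 in GF minus Veh and 0.31 in DM minus Veh, with that miR-10b probe at the floor on 9 arrays. There Veh 1 to Veh 4 read -4.55 to -4.42, against -4.395 on GF 1 and -4.393 on DM 4. That miR-10b probe was at the floor on each of Veh 1 to Veh 4. Their values therefore follow miR-10a-5p alone and cannot show whether the balance repeats. Veh 5 (-4.27) did not lie above all GF and DM arrays, since DM 3, also with that probe at the floor, read -3.75.

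**Figure D5:**
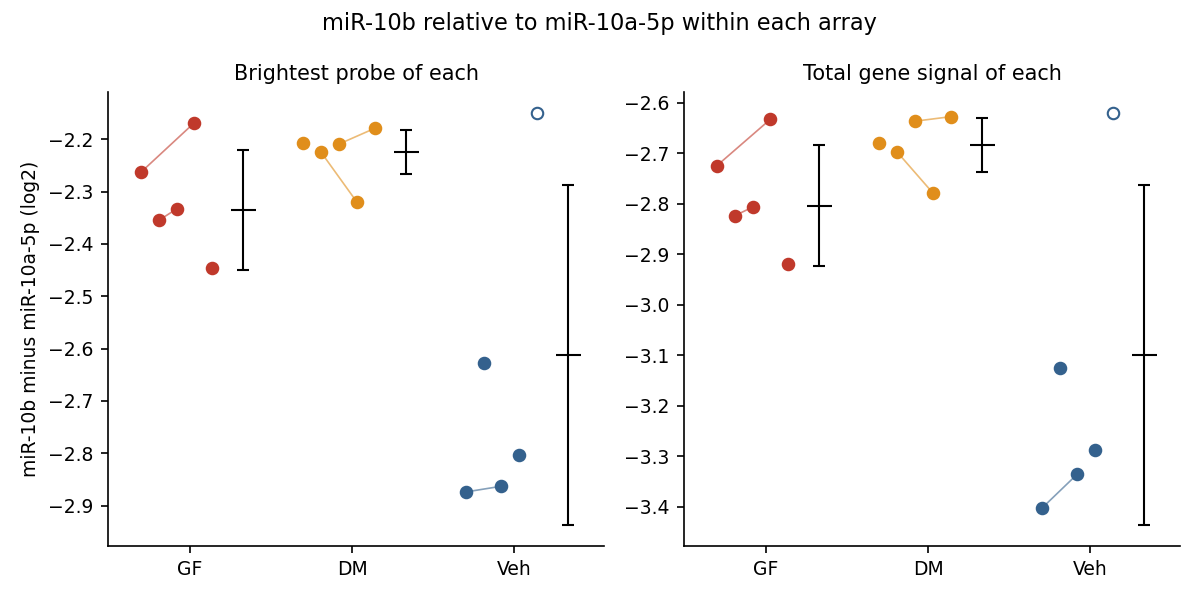
miR-10b minus miR-10a-5p (log2) within each array, from the brightest probe of each (left) and from total gene signal (right), in GF, DM and Veh hearts; lines join the 2 arrays of a close pair, the open point is Veh 5, and bars give the mean ± SD over distinct samples (n = 3, 3 and 4). On the left, 4 Veh arrays lie from -2.87 to -2.63, below all GF and DM arrays, and Veh 5 lies at -2.15.

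Array Veh 5, which carried the highest miR-10a-5p and miR-10b and the lowest miR-196c of its group, also differed in markers of other cell types. The summed signal (log2) of the smooth muscle markers miR-143 and miR-145 was 14.21 on Veh 5 and 13.51 to 13.70 in the other Veh samples. Signals were summed before the log, so each sum follows its brightest markers and does not show that all moved together. The smooth muscle sum is nearly that of miR-143 alone, which averaged 13.87 over the arrays against 5.89 for miR-145. That of the kidney epithelium markers miR-192, miR-194 and miR-204 was 8.37 on Veh 5 and 7.71 to 7.74 in the other Veh samples, and that of the 4 fibroblast markers was 14.09 on Veh 5 and 13.78 to 13.93 in the others. The 5 heart muscle markers, miR-1, miR-133a, miR-133b, miR-208 and miR-499, were tested in full, and their sum on Veh 5 (17.13) lay within that of the other Veh samples (16.92 to 17.38). Across groups it ran from 16.81 to 17.02 in GF, 16.95 to 17.05 in DM and 16.92 to 17.38 in Veh samples. It follows miR-133b and miR-1, which averaged 16.06 and 15.82 over the arrays. In GF minus Veh, miR-208 was -1.34, miR-1 -0.14, miR-133a -0.34, miR-133b -0.32 and miR-499 -0.19. The fibroblast sum ran from 13.80 to 14.15 in GF, 13.91 to 14.19 in DM and 13.78 to 14.09 in Veh samples. Across groups the smooth muscle sum ran from 13.79 to 14.15 in GF, 13.85 to 14.01 in DM and 13.51 to 14.21 in Veh samples, and the kidney epithelium sum from 7.52 to 7.98 in GF, 7.90 to 8.33 in DM and 7.71 to 8.37 in Veh samples. The endothelium sum, from 3 of 4 markers tested, ran from 13.94 to 14.06 in GF, 14.11 to 14.36 in DM and 14.25 to 14.55 in Veh samples. The leukocyte sum, from 5 of 6 markers, ran from 12.29 to 12.48 in GF, 12.37 to 12.68 in DM and 12.60 to 12.67 in Veh samples, and the red cell sum, from both markers, from 12.17 to 12.54 in GF, 11.75 to 12.59 in DM and 12.59 to 12.84 in Veh samples. The neural sum, from 2 of 3 markers, ran from 5.45 to 5.89 in GF, 5.67 to 6.38 in DM and 6.02 to 6.23 in Veh samples. The GF samples lay below all Veh samples in these 4 sums, and below all DM samples in the endothelium sum. The fat sum ran from 10.40 to 10.71 in GF, 10.72 to 10.98 in DM and 10.68 to 10.89 in Veh samples. The skeletal muscle marker miR-206 was not well above background. Of 9 marker lists with tested members, the Veh 5 sum lay above the other Veh samples for 4, below them for 2 and within their range for 3. The part of these differences in the miR-10 and miR-196 values was not tested.

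The tested miRNAs whose pattern over the 10 distinct samples was most like that of each member were found by Pearson correlation, as a description of arrays that share their scaling. For miR-10b they were miR-31 (r = 0.97), miR-140* (0.95), miR-224 (0.91), miR-598-3p (0.90) and miR-143 (0.86). For miR-10a-5p they were miR-204 (0.915), miR-224 (0.85), miR-30b-5p (0.81), miR-218 (0.79) and miR-365 (0.78), and its correlation with miR-10b was 0.77. For miR-196c they were miR-34b (0.79), miR-139-5p (0.76), miR-345-5p (0.76), miR-331 (0.76) and miR-378 (0.74). miR-196c and miR-10a-5p, encoded in the same cluster, had a correlation of -0.21, and miR-196c and miR-10b -0.36.

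The relatives of the family were measured through 11 other miRNAs on the array, of which 8 were tested. They comprise the opposite-arm forms of miR-10a and miR-196a, the miR-99 and miR-100 relatives of miR-10, and miR-126, miR-130a, miR-181a and miR-181b, which are known to act on Hox messenger RNAs. The opposite-arm forms miR-10a-3p and miR-196a* lay at the floor in every group. In GF minus Veh 0 of the 8 passed in either direction, where 7.88% of all tested miRNAs did, with a median of -0.17 against -0.055 over all tested miRNAs. In DM minus Veh 0 passed, where 0% of all did, with a median of -0.067 against 0.027, and in GF minus DM 0 passed, where 0% of all did, with a median of -0.15 against -0.084. miR-100, of the wider miR-10 family, averaged 10.08 in GF, 10.26 in DM and 10.44 in Veh samples, miR-99a averaged 11.74 in GF, 11.84 in DM and 11.90 in Veh samples, and miR-99b averaged 7.43 in GF, 7.48 in DM and 7.38 in Veh samples. Their GF minus Veh differences were -0.36 ± 0.10, -0.16 ± 0.086 and 0.049 ± 0.093 (SE; limma adjusted p = 0.0551, 0.227 and 0.789).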

How the data were processed

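Per the labels, 100 ng of total RNA per sample was labelled with Cy3. Per the file headers and the submitters' processing notes, Agilent Feature Extraction 9.5.3.1 read the arrays. The deposited array files give each spot's signal intensity after background subtraction, with no scaling between arrays. A deposited table of 149 filtered miRNAs gives log2 values, which equal log2 total gene signal minus the mean of the Veh arrays (largest difference 2.05e-06); it includes miR-10a-5p, miR-10b and miR-196c. Another of the authors' deposited tables lists 35 miRNAs with a p-value from a comparison of all 3 groups and includes 0 of the 5 members. Their software was not given in the sources used here.

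Spots called outliers (153 to 294 per array) were dropped, and 0 were saturated. Processed signals were scaled so that arrays agreed at the 75th percentile of the 254 probes well above background on every array, floored at 19.8 and taken to log2, and a miRNA was read from its brightest probe. Of 350 miRNAs, 165 were tested, those with that probe above background on 3 or more of a group's 5 arrays. limma 3.58.1 (in R 4.3.3; lmFit, then eBayes) was run over the 10 distinct samples, two-sided, with Benjamini-Hochberg adjustment over all tested miRNAs and a threshold of 0.05, and was tested on simulated data. The number of arrays limits the precision, and p-values measure only the spread between these samples, which may be technical. All 5 members are named, and the 5 miRNAs most like each tested one by Pearson correlation. The members and lists were chosen with earlier results of these data known. The normexp alternative used the median spot signal, since the array files hold no mean signal. Other alternatives changed the scaling, the floor, the filter, the probe summary, the blocks and the samples used. Python 3.11.15 with pandas 2.3.3, numpy 2.4.6, scipy 1.17.1 and matplotlib 3.10.9 produced the tables and plots.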

Additional observations from a re-analysis of the deposited data

Results flagged for a closer look

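Among the 4 distinct Veh samples, Veh 5 stood apart from the others for miR-10a-5p, at 9.99 against 9.57 in each of the other 3, and for miR-196c, at 5.68 against 6.67 to 6.83. The gap to the nearest sample was 0.99 of the group's range for miR-10a-5p and 0.862 for miR-196c, past the 95% critical value of Dixon's ratio for 4 samples. The value for miR-196c rests on averaging Veh 1 (7.61) and Veh 3 (5.83), and as a single array Veh 3 lay close to Veh 5. For miR-10b the share was 0.791 and for miR-10b minus miR-10a-5p 0.665, which are not past it. Over all 165 tested miRNAs, 24 (14.5%) were past it in the Veh group, 19 of them with Veh 5 as the sample apart, where chance flags about 1 group in 20. The GF and DM groups, with 3 samples each, were not tested in this way.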

How the results depend on the processing

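The number of tested members past the threshold was 0 in DM minus Veh and in GF minus DM under every alternative fit. The GF minus DM difference of miR-196c stayed below zero in all 32 alternatives, from -1.67 to -0.26, with adjusted p from 0.0741 (normexp) to 0.77. Its GF minus Veh difference stayed below zero in all 32, moving by more than the spread between samples with the dimmest probe alone (-0.56). The SE of that difference was 0.74 with the close pairs as a random block and a within-pair correlation shared by all miRNAs, against 0.37. With no scaling between arrays miR-10a-5p moved to 0.24 in GF minus Veh and 0.57 in GF minus DM, and miR-10b to 0.52 and 0.46; from the deposited log2 values they were 0.20 and 0.56, and 0.50 and 0.44, with no GF minus DM call. The GF minus Veh sign of miR-10a-5p also turned with quantile normalization (0.0073), with all probes in the percentile (0.058), within slide 1 (0.050), without GF 2 and 4 (0.024) and without Veh 5 (0.027). Small differences in the other contrasts changed sign, all uncalled. For miR-196c in DM minus Veh these were -0.051 with quantile normalization, -0.099 with no scaling, -0.075 when the probes were averaged, -0.056 from total gene signal, -0.13 from the deposited log2 values, -0.026 with slide as a block, -0.30 and -0.030 with 2 of the single probes, and -0.56 within slide 1. For miR-10b in DM minus Veh they were -0.045 with 8 merged samples and -0.063 within slide 2. For miR-10b in GF minus DM they were -0.080 scaled to the hur control spots, -0.024 when the probes were averaged, -0.20 with normexp and -0.061 with its dimmer probe. Leaving out 1 sample at a time gave -1.57 to -0.88 for miR-196c in GF minus Veh, -1.59 to -0.91 in GF minus DM and -0.24 to 0.19 in DM minus Veh. It gave -0.35 to 0.036 and -0.11 to 0.27 for miR-10a-5p, and 0.033 to 0.45 and -0.21 to 0.17 for miR-10b, in DM minus Veh and in GF minus DM.

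Same-numbered arrays of different groups did not deviate together (correlations from -0.53 to 0.47, median 0.060), so the numbers were not taken as pairs. With a replicate block over 15 arrays, miR-196c differed by -1.01 in GF minus Veh, -1.05 in GF minus DM and 0.044 in DM minus Veh; miR-10a-5p by -0.078, 0.16 and -0.24, and miR-10b by 0.28, 0.087 and 0.20 in the same contrasts. The count of all miRNAs past the threshold in GF minus Veh was 13, 60 with 15 arrays as independent, 50 with the replicate block, 57 with slide as a block, 21 when the probes were averaged, 4 scaled to the hur control spots, 2 from the deposited values and 0 with 8 merged samples; without 1 sample it ran from 0 (Veh 1 and 3, Veh 2, Veh 4 or GF 2 and 4 left out) to 28 (Veh 5 left out), with 24 without DM 3 and 5 and 8 without GF 6; in DM minus Veh it ran from 0 to 4 and in GF minus DM from 0 to 6. Of the 5 miRNAs most like each member, Spearman correlation kept 2 for miR-10a-5p, 3 for miR-10b and 0 for miR-196c. The dim signal of miR-196c limits its values on GF 6 and those of its dimmest probe.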
